A study of Mus musculus with 73 samples.

Results

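The *Sox2* promoter library is a collection of reporter plasmids in which the *Sox2* promoter drives a barcoded transcript and 2 further DNA fragments are cloned downstream of it, in positions 1 and 2 and in either orientation. Its members are all combinations of fragments measured with this promoter, which were 11526 of the 110180 combinations in the 8 promoter libraries of the series. They were chosen by the promoter alone, with no measured value. Of these, 221 were control-control (CC), 4142 enhancer-control (EC) and 7163 enhancer-enhancer (EE) combinations. CC combinations carry 2 random or shuffled sequences, EC combinations carry 1 enhancer and 1 such control, and EE combinations carry 2 enhancers.

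All groups came from the same cells, E14TG2a mouse embryonic stem cells (mESCs), an established line grown in 2i+LIF. The whole *Sox2* library was transfected transiently in 3 biological replicates, and RNA was collected after 24 hours. The series holds 6 cDNA samples of this library, which are the 3 replicates sequenced in 2 runs each, beside 2 samples of the plasmid DNA (pDNA) and 1 inverse PCR sample that links barcodes to fragments. A combination therefore has no cells of its own, and the plasmids place enhancers next to a promoter, outside of their chromosomal context and distance.

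*Sox2* encodes a transcription factor that, together with those encoded by *Pou5f1* and *Nanog*, maintains the pluripotent state of mESCs. Enhancers are DNA elements that bind such factors and raise transcription from promoters, often over long distances. In mESCs, *Sox2* is mainly controlled by a distal group of enhancers downstream of the gene. In a massively parallel reporter assay, the RNA from each barcode is set against the amount of plasmid, so that enhancers can be measured singly and in pairs with the same promoter.

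The element selected for the *Sox2* promoter spans 450 bp at chr3:34649971-34650420 (mm10). The RefSeq annotation of GRCm38.p6 places the *Sox2* gene on the plus strand from 34649995 to 34652461, so that 24 bases of the element lie before this start and 425 bases lie after it. The forward primer that amplified it begins at 34649995, the base of the annotated gene start, so that the cloned promoter starts there and the bases before it are not in the plasmids. The paper describes its promoters as lying mostly upstream of a transcription start site, chosen from transcript annotation and DNase hypersensitive sites. That start site can differ from the annotated gene start used here. The element also lies within *Sox2ot*, a non-coding gene that overlaps *Sox2*.

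The enhancers are genomic fragments that were amplified by PCR, and their names give the locus and a number. The primers of the Sox2_E180, Nanog_E074 and Nodal_E159 fragments are shown because their pairs fell furthest below additivity among pairs of at least 4 combinations, and those of Fgf5_E040 and Tbx3_E203 because this pair was among those furthest above it. Klf2_E058 had the highest single-enhancer activity. All primers come from the supplementary files of the study and are written 5′ to 3′ in lower case. The coordinates are those of the selected elements in mm10, and the primers lie within the ends of these, so that the cloned fragments are somewhat shorter.
Sox2_E180, chr3:34757763-34758212, forward: tttaagtttgccttgtgagctcagg
Sox2_E180, reverse: cggtattaaagtctccttcacaagacc
Nanog_E074, chr6:122702830-122703279, forward: ccctgtaccaaacctttgtagaacttg
Nanog_E074, reverse: ggatacaaagcccagcaaactacc
Nodal_E159, chr10:61415836-61416285, forward: tccttgttccctacactataagcatcc
Nodal_E159, reverse: ttgaaccagcggtctcctgc
Fgf5_E040, chr5:98313134-98313583, forward: cagagttccacaaagtccagtaattg
Fgf5_E040, reverse: attgatcatggtgtctgttcacagtag
Tbx3_E203, chr5:119656667-119657116, forward: ggatggctcaagaaggaagagttctatc
Tbx3_E203, reverse: aatgggtcactgggtcggtg
Klf2_E058, chr8:72316077-72316526, forward: cagggccataggttcagacaaag
Klf2_E058, reverse: aaggatgtttcaaactaagcctgacag

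The controls are designed sequences, of which 5 are random and 15 are shuffled versions of 5 sequences from DNase hypersensitive sites. The first 120 bases of the control partners with the highest (RandomE2) and the lowest (E6-shuffled3) activities are shown, as given in the supplementary files of the study. Capitals mark the 22 bases that all controls share at their start, and both sequences are 493 bases long.
RandomE2: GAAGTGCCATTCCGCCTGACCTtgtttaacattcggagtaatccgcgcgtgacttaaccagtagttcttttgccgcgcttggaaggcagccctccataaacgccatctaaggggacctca
E6-shuffled3: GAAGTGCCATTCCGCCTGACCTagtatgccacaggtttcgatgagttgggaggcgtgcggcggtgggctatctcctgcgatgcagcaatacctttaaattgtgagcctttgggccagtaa

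The activity of a combination is the authors' ratio of cDNA to pDNA, averaged over barcodes. The baseline of the *Sox2* promoter, which is the median activity of its CC combinations, was 0.168, 0.173 and 0.169 in the 3 replicates. The boost index is the log2 of an activity over this baseline, so that a boost index of 1 is a doubling. Of the 221 CC combinations 2 were at 0 in a replicate and had no log2 value, as had 1 EC combination, which left 219 CC and 4141 EC combinations. The log2 activities of all combinations correlated between replicates with Pearson's R of 0.958, 0.941 and 0.926 across 11523 combinations, which share fragments and are not independent. The authors required a minimum number of barcodes per combination and of pDNA counts per barcode. The numbers above these minima are not in the table, so that counting errors could not be computed.

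Activity rose from CC to EC and from EC to EE combinations in each of the 3 replicates. The median boost index of EC combinations was 1.68, 1.60 and 1.74 in replicates 1, 2 and 3, with a mean of 1.67 ± 0.07 (SD, n = 3). That of EE combinations was 3.54, 3.27 and 3.37, with a mean of 3.39 ± 0.14 (SD, n = 3). The replicates of both types did not overlap. From the geometric means over replicates, the median EC combination was 3.02-fold and the median EE combination 10.3-fold above the baseline. The median of EE combinations exceeded that of EC combinations by 1.86, 1.67 and 1.63 in the replicates, or 1.72 ± 0.12 log2 units (SD, n = 3). With 3 replicates, an exact sign-flip test cannot reach a two-sided p below 0.25, and this difference was not tested.

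The types of combinations also differed in their spread. The middle 90% of boost indices, from the 5th to the 95th percentile, ran from -1.67 to 0.97 for CC, from -0.04 to 4.40 for EC and from 1.16 to 4.74 for EE combinations. Only 5.46% of EC and 0.140% of EE combinations lay below the baseline. Of EC combinations 70.9% and of EE combinations 96.8% were above the 95th percentile of CC combinations. The highest EC and EE combinations had almost the same boost index, at 5.40 and 5.41. CC combinations varied most between replicates, with a median SD of 0.57 over the replicates of a combination, against 0.24 for EC and 0.18 for EE combinations. Furthermore, 0.452% of CC combinations had their fragments in opposite orientations, against 49.9% of EC and of EE combinations, so that the controls of the baseline were nearly all in the same orientation.

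**Figure D1:**
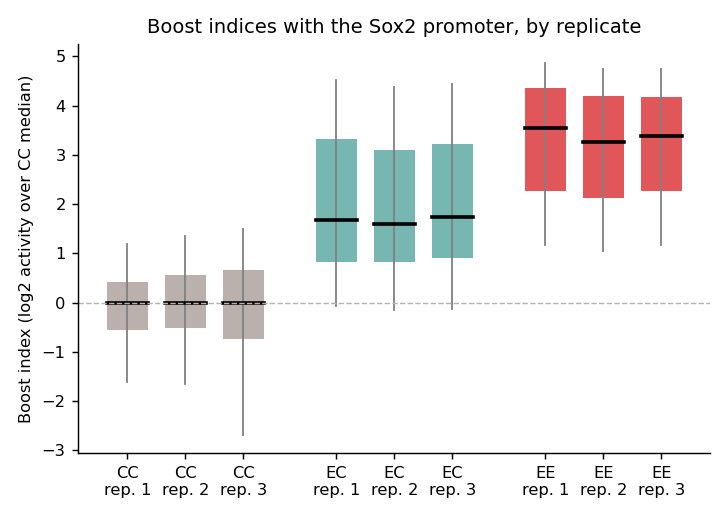
Boost indices (log2 activity over the CC median) of CC, EC and EE combinations with the *Sox2* promoter, by replicate. Boxes span the quartiles, thick lines are medians and thin lines run from the 5th to the 95th percentile, and the EE medians of 3.54, 3.27 and 3.37 all lie above the EC medians of 1.68, 1.60 and 1.74.

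For each enhancer, the single-enhancer boost index is the median over its EC combinations. All 56 enhancers had a boost index above 0 in every replicate, and 54 of 56 were higher than the controls at a 1% FDR (exact rank-sum test over combinations, Benjamini-Hochberg over all enhancers and promoters). Across the 8 promoters, 87.6% of enhancer-promoter pairs were higher by the same test and 1.77% were lower. No enhancer was lower than the controls with *Sox2*, by this test or by limma, and 55 had an unadjusted p below 0.05, all of them higher. The rank-sum test treats combinations that share an enhancer and controls as separate. With limma over the 3 replicates, 51 enhancers were higher, and the 3 that were no longer called were Lefty1_E087, Nodal_E157 and Otx2_E110.

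The enhancers spanned a wide range of activities. The single-enhancer boost indices ran from 0.24 to 4.55 with a median of 1.48, and 13 enhancers were over 3, 25 between 1 and 3 and 18 under 1. A median of 60 EC combinations (range 3 to 157) stood behind each enhancer. Replicates differed little, with a median SD of 0.13, whereas the EC combinations of the same enhancer had a median SD of 0.54. Of the 56 enhancers, 27 had more than 50% of their EC combinations above every CC combination, the highest of which was at 1.58. Of the 55 pairs of neighbours in the order of activities, 41 differed by less than the SD of their difference over replicates, so that the order is only settled in broad steps.

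The 5 most active enhancers came from 4 loci of pluripotency genes. Klf2_E058, from the locus of the pluripotency factor *Klf2*, had boost indices of 4.70, 4.46 and 4.50 in the 3 replicates. Pou5f1_E081, which lies in the non-coding gene *Gm32362* of the *Pou5f1* (Oct4) locus, had 4.55, 4.40 and 4.48. Sox2_E180, from the promoter's own locus, followed with 4.21, 4.27 and 4.12. Within each replicate Klf2_E058 was above Pou5f1_E081, which was above Sox2_E180. Nanog_E073 (4.29, 3.93 and 4.14) and Nanog_E074 (4.14, 4.05 and 4.00) are neighbouring fragments that overlap each other, and neither was above the other in every replicate. All EC combinations of Sox2_E180 and of Nanog_E074 were above every CC combination.

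At the low end, enhancers were near the baseline, and for 3 of the 5 lowest the call depended on the test. Nodal_E157 had boost indices of 0.25, 0.13 and 0.41 (152 EC combinations), with an adjusted p of 4.43e-05 in the exact rank-sum test over combinations and of 0.0288 in limma over replicates. Nodal_E162, which lies in the *Nodal* gene of a TGF-β family ligand, had 0.26, 0.35 and 0.35. The values of Pou5f1_E079 were 0.41, 0.58 and 0.66. Otx2_E110, from the locus of a transcription factor of the primed state, varied most among these with 0.52, 0.11 and 0.97 (limma adjusted p = 0.0463). Lefty1_E087, from the locus of a Nodal antagonist, had 0.29, 0.51 and 0.76 (adjusted p = 0.00086 in the exact rank-sum test and 0.0101 in limma). None of the EC combinations of Nodal_E157, Nodal_E162, Pou5f1_E079 and Lefty1_E087 was above every CC combination.

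Both enhancers that were not called had only 3 EC combinations. Nanog_E089, in the glucose transporter gene *Slc2a3*, had boost indices of 1.25, 0.80 and 0.07 (adjusted p = 0.0288, exact rank-sum test). Pou5f1_E082, also in *Gm32362*, had 1.07, 0.70 and 0.10 (adjusted p = 0.165, exact rank-sum test). Their SD over replicates, 0.60 and 0.49, were above the median SD of all enhancers, and the third replicate was the lowest for both.

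**Figure D2:**
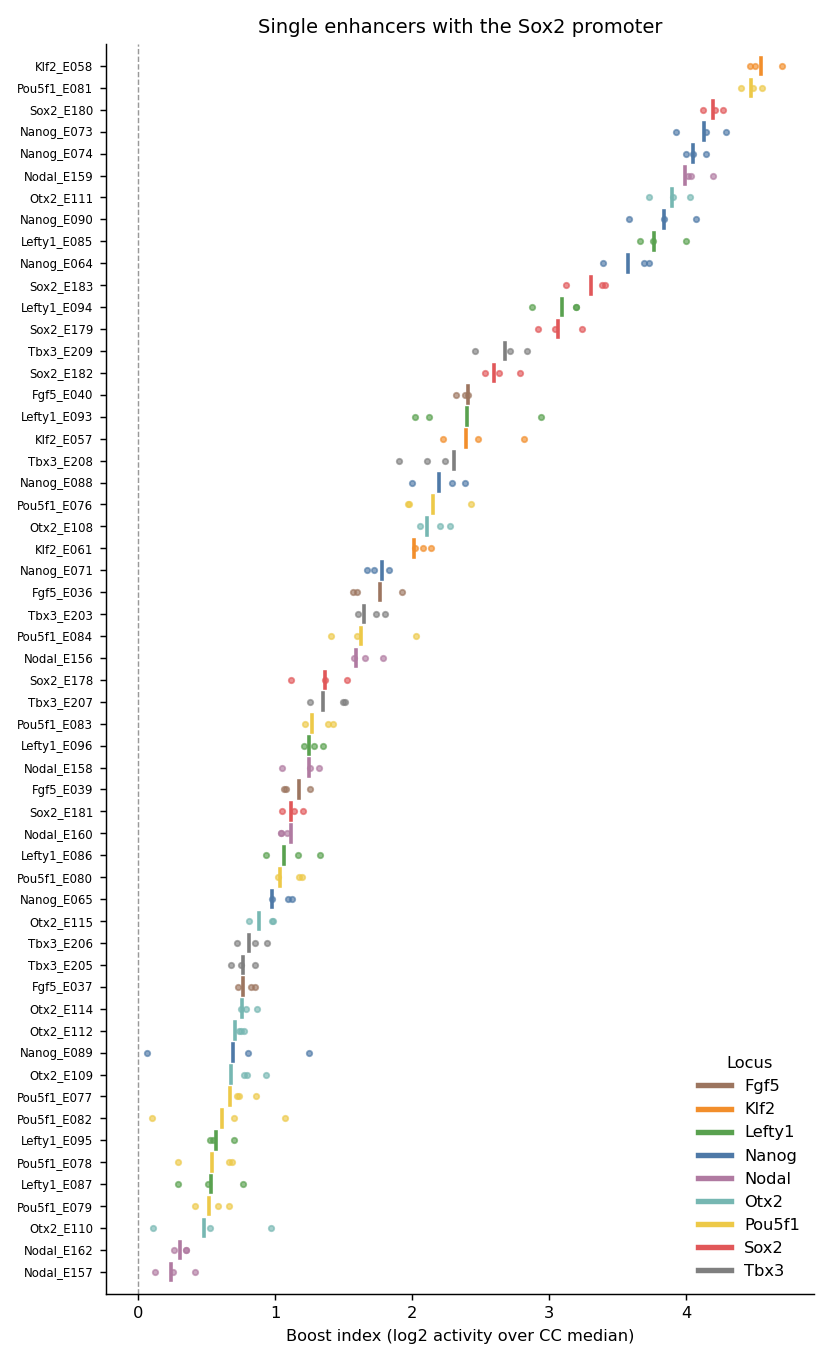
Single-enhancer boost indices (log2) of all 56 enhancers with the *Sox2* promoter, ordered from the highest at 4.55 to the lowest at 0.24. Points are the 3 replicates, bars the value from the geometric mean over replicates, and colours the locus of the enhancer.

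By locus, the median of the single-enhancer boost indices was highest for *Nanog* (2.88, 8 enhancers), *Sox2* (2.83, 6 enhancers) and *Klf2* (2.39, 3 enhancers). It was 1.50 for *Tbx3* (6 enhancers), which encodes a T-box transcription factor, and 1.47 for *Fgf5* (4 enhancers), a growth factor gene of the primed state. The loci of *Lefty1* (1.25, 7 enhancers), *Nodal* (1.18, 6 enhancers), *Pou5f1* (1.03, 9 enhancers) and *Otx2* (0.76, 7 enhancers) were lower. Enhancers of the same locus could differ widely, as those of *Pou5f1* ran from 0.52 to 4.47 and those of *Nodal* from 0.24 to 3.99, whereas those of *Klf2* started at 2.01 and none of *Tbx3* and *Fgf5* was over 3. Enhancers of a locus are not replicates of it, and no test was made between loci.

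The 6 enhancers of the *Sox2* locus lie on chromosome 3 between 34755230 and 34761573, starting 102769 bp beyond the end of the *Sox2* gene, and none overlaps a RefSeq gene. All were higher than the controls, and Sox2_E180 was the strongest (4.20 ± 0.07, SD, n = 3). Sox2_E183 had boost indices of 3.39, 3.12 and 3.40, Sox2_E179 had 3.24, 2.92 and 3.04, and Sox2_E182 had 2.79, 2.64 and 2.53. The other two were far weaker. Sox2_E178 had 1.36, 1.12 and 1.53, and Sox2_E181, which overlaps Sox2_E182 by 63 bp, had 1.20, 1.05 and 1.14. Within each replicate the order was the same, with Sox2_E180 highest, followed by Sox2_E183, Sox2_E179, Sox2_E182, Sox2_E178 and Sox2_E181.

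The activity of an EC combination also depended on which control stood beside the enhancer. For each of the 20 controls, the shift is the median difference between its EC combinations and the median of all EC combinations of the same enhancer in the same position. RandomE2 had shifts of 0.48, 0.34 and 0.46 log2 units in the 3 replicates (140 EC combinations), and E6-shuffled3 had shifts of -0.83, -0.62 and -0.62 (290 EC combinations). All 3 replicates were above 0 for 12 controls and below 0 for 8, and the median SD over replicates was 0.03. The control partner accounted for 36.5% of the variance among EC combinations of the same enhancer, compared with 26.8% with the *Lefty1* promoter and 27.5% with the *Tbx3* promoter.

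Controls that were lower beside enhancers were also lower among themselves. Across the 20 controls, the shift correlated with the median boost index of the control's CC combinations (R = 0.790), although both come from the same library. The shift in EC combinations of the weaker enhancers correlated with that in the stronger ones (R = 0.884), and the shift with the control in position 1 with that in position 2 (R = 0.839). The shift with *Sox2* correlated with those with *Lefty1* (R = 0.898) and *Tbx3* (R = 0.915), and its sign was the same for 17 of 20 controls with either promoter. These correlations are descriptions over 20 sequences, of which 15 are shuffled from shared sources.

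Of the 5 families of shuffled controls, the 3 versions of E6 had the lowest median shift, -0.46, and with 57.6% the highest GC content among the controls. The GC content of all controls ran from 45.2% to 57.6%, and correlated weakly with the shift (R = -0.259, n = 20). Without the E6 versions, 54 enhancers were higher than the controls, and the median boost index was 1.52 for EC and 3.20 for EE combinations.

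**Figure D3:**
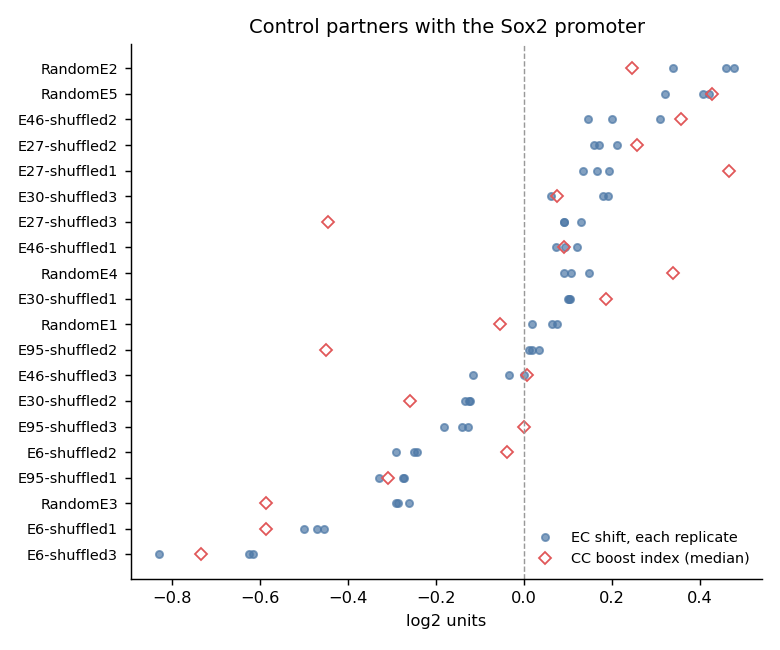
Shift of EC combinations by control partner (points, 3 replicates) and median boost index of CC combinations with the same control (open diamonds), in log2 units, for the 20 controls with the *Sox2* promoter. Controls run from RandomE2 at the top, with shifts of 0.34 to 0.48, to E6-shuffled3 at the bottom, with shifts of -0.83 to -0.62.

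The position of an enhancer changed its activity more often toward lower values in position 2. Of 54 enhancers with at least 3 EC combinations in each position, 20 were lower and 5 higher in position 2 than in position 1 at a 5% FDR (limma over replicates, Benjamini-Hochberg over all promoters), and the median difference was -0.18 log2 units. Across the 8 promoters 40% of enhancer-promoter pairs were called in either direction, so that 25 of 54 with *Sox2* is near this background. The largest differences were those of Otx2_E109, with boost indices of 1.27, 1.17 and 1.18 in position 1 and 0.50, 0.46 and 0.57 in position 2, and of Klf2_E061, with a mean of 2.33 ± 0.14 in position 1 and 1.69 ± 0.18 in position 2 (SD, n = 3). Otx2_E108 differed by -0.64 ± 0.06 (SE, limma adjusted p = 0.0096). The number of calls depended on which replicate was left out, since 0 enhancers were called in limma without replicate 1, 15 without replicate 2 and 9 without replicate 3. With fewer replicates, these fits also had less power.

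The calls by orientation had no common direction. Of 53 enhancers, 11 were higher and 10 lower in the plus orientation than in the minus orientation (limma, 5% FDR), against 47.8% called in either direction across all promoters. The difference itself was above 0 for 19 of the 53 enhancers, with a median of -0.05 log2 units. Klf2_E057 was higher in the plus orientation, with 2.99, 2.39 and 2.82 against 2.39, 1.90 and 2.04. Otx2_E108 was also higher in the plus orientation by 0.56 ± 0.06 and Otx2_E109 was lower by the fitted difference of -0.54 ± 0.06 (SE). These differences were well below the range between enhancers, and only 5 enhancers differed by more than 0.5 log2 units between positions and 5 between orientations. In limma without replicate 1, 2 or 3, the number of orientation calls was 13, 9 and 20. When EC activities were centred on the shift of the control partner, 32 enhancers were called by position and 23 by orientation.

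The *Lefty1* and *Tbx3* promoters, which had the lowest baselines of the 8 libraries, were compared with *Sox2*. Their baselines were 0.0945, 0.0885 and 0.0841 for *Lefty1* and 0.0989, 0.110 and 0.148 for *Tbx3*. The median boost index of EC combinations was 1.60 with *Lefty1* and 1.55 with *Tbx3* against 1.59 with *Sox2*, and that of EE combinations was 3.31 and 3.10 against 3.37. Single-enhancer boost indices correlated between *Sox2* and *Lefty1* with R of 0.960 across 56 enhancers, and between *Sox2* and *Tbx3* with R of 0.972 across 55 enhancers. Both comparisons share the *Sox2* samples. The tests below cover the spread between replicates, and not that between control partners, which were not the same combinations in each library. They did not pair the replicates of different libraries by number. The main fit held all 8 libraries with 1 estimate of the spread per enhancer, so that each SE also carries the spread with the other promoters. Against *Lefty1*, Nodal_E159 had an SE of 0.22 with SDs of 0.10 (*Sox2*) and 0.06 (*Lefty1*). Pou5f1_E082 had an SE of 0.17 with SDs of 0.49 and 0.12. A call or its absence thus does not rest on the replicates of the compared promoters alone.

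Few enhancers were called different between the *Sox2* and *Lefty1* promoters, and the median difference was 0.07 log2 units. This median had no settled direction, since it was 0.04, 0.07 and 0.12 without replicates 1, 2 and 3, and -0.01 over combinations measured with both promoters. At a 5% FDR (limma, Benjamini-Hochberg over both comparisons), 4 of 56 enhancers were higher with *Sox2* (7.14% of those tested) and 3 were lower (5.36%), while 19 had an unadjusted p below 0.05. Sox2_E178 had 1.36, 1.12 and 1.53 with *Sox2* and 0.60, 0.69 and 1.01 with *Lefty1*, a difference of 0.57 ± 0.14 (SE, limma adjusted p = 0.00639). Fgf5_E040 had 2.38, 2.32 and 2.41 against 1.71, 1.89 and 1.85 (limma adjusted p = 0.00459), and Tbx3_E207, which lies in the *Tbx3* gene, was higher by 0.46 ± 0.12 (SE). For each of these enhancers the replicates of both promoters did not overlap. The same held for most of all enhancers compared with *Lefty1*, among them many that were not called, such as Sox2_E180, Nodal_E159 and Pou5f1_E081. Non-overlap therefore did not mark the called ones.

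Among the enhancers that were lower with *Sox2*, Lefty1_E085 is the most thoroughly measured. It had boost indices of 4.00, 3.66 and 3.75 with *Sox2* and 4.63, 4.47 and 4.57 with *Lefty1*, the promoter of its own locus (limma adjusted p = 0.0104, with 125 and 154 EC combinations). The differences of the 7 enhancers of the *Lefty1* locus ran from -0.75 to 0.27, and only 1 was called lower. The 5 most active enhancers with *Sox2*, all from other loci, also had differences below 0, and none was called. These were -0.21 for Klf2_E058, -0.46 for Pou5f1_E081, -0.50 for Sox2_E180, -0.38 for Nanog_E073 and -0.01 for Nanog_E074. Whether the difference depends on the locus or on the strength of an enhancer was not tested. Nanog_E089 differed by -1.56 ± 0.27 (SE), but with 3 EC combinations with *Sox2* and 1 with *Lefty1*, and by -0.77 over combinations measured with both promoters (limma adjusted p = 0.0271). Pou5f1_E082 differed by -0.95 ± 0.17 (SE), with 3 against 65 EC combinations. Over combinations measured with both promoters, the difference of Pou5f1_E082 was -0.11 (limma adjusted p = 0.804), so that its call depended on which combinations were measured. The number of calls was 3, 0 and 6 without replicates 1, 2 and 3.

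Against *Tbx3*, the difference was mostly toward higher boost indices with *Sox2*, with a median of 0.19 log2 units over all enhancers, or 0.27, 0.25 and 0.08 without replicates 1, 2 and 3. Of 55 enhancers, 11 were higher with *Sox2* (20%) and 1 was lower (1.82%), and 18 had an unadjusted p below 0.05 (limma). Of the 11, 4 came from the 6 enhancers of the *Sox2* locus, whose median difference was 0.57. The median was 0.43 for the *Klf2* locus (2 of 3 enhancers higher) and 0.40 for *Nanog* (1 of 7 higher). In the other loci it ran from -0.02 for *Tbx3* to 0.19 for *Pou5f1*. Against *Lefty1*, the median of the *Sox2* locus was 0.32, with 1 of 6 enhancers higher. Loci were not tested against each other. Sox2_E179 had 3.24, 2.92 and 3.04 with *Sox2* and 2.52, 2.45 and 1.90 with *Tbx3*, a difference of 0.78 ± 0.25 (SE, limma adjusted p = 0.0359). Sox2_E182 had 2.79, 2.64 and 2.53 against 2.20, 2.10 and 1.70 (limma adjusted p = 0.00289). Klf2_E057 had 2.81, 2.23 and 2.48 against 2.12, 1.92 and 1.32 (limma adjusted p = 0.0194). In all of these the replicates did not overlap, as also for several enhancers that were not called, such as Nodal_E156 and Sox2_E181. For most of all enhancers compared with *Tbx3*, the replicates did overlap. For Sox2_E179, Sox2_E182 and Klf2_E057 the third replicate was the lowest with *Tbx3*, whose baseline was highest in that replicate. Without replicate 1, 2 or 3, the number of calls was 9, 1 and 4. Pou5f1_E082 was the enhancer that was lower with *Sox2*, by the fitted difference of -0.78 ± 0.17 (SE) with 3 EC combinations for *Sox2*. It was not called over combinations measured with both promoters (-0.68, limma adjusted p = 0.131) or without replicate 2 (limma adjusted p = 0.115).

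**Figure D4:**
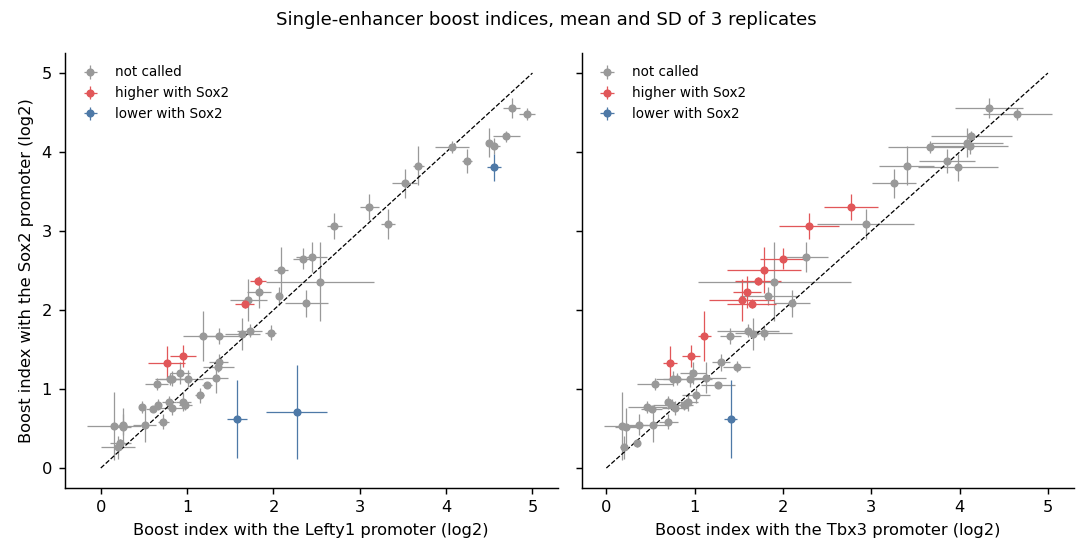
Single-enhancer boost indices (log2) with the *Sox2* promoter against those with *Lefty1* (left) and *Tbx3* (right), as mean and SD of 3 replicates. Dashed lines mark equal boost indices, and coloured points are enhancers called at a 5% FDR, 7 in the left and 12 in the right panel.

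EE combinations were set against an additive expectation, which adds the activities of both enhancers measured singly in the same positions and subtracts the baseline, on the linear scale. The deviation is the log2 of observed over expected activity, so that combinations above it are supra-additive and those below it sub-additive. An expectation could be computed for 6983 of 7163 EE combinations. The median deviation was 0.19, 0.20 and 0.15 in the replicates, or 0.18 ± 0.03 (SD, n = 3), while the median deviation from a multiplicative expectation, the product of both boosts, was -0.54. Of the EE combinations, 84.8% were above the stronger of their single enhancers, 71.6% in all 3 replicates, and the median gain over the stronger enhancer was 0.43 ± 0.02 (SD, n = 3).

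Deviations were tested per combination with limma over replicates at a 5% FDR. Supra-additive calls numbered 2360 of 6983 (33.8%) and sub-additive calls 662 (9.48%), against 25.1% and 13.5% across all promoters. Outside 1 propagated SD of the expected activity, which covers the spread over EC combinations, were 28.7% above and 8.09% below. The number of calls depended on which replicate was left out. Without replicate 1 limma called 0 in either direction, without replicate 2 it called 511 and 201, and without replicate 3 it called 1988 and 513. These fits used fewer replicates and had less power, and the median deviation stayed between 0.18 and 0.20. Without the E6 controls, 1702 combinations were supra-additive and 824 sub-additive, and the median deviation was 0.11. Combinations that share an enhancer also share the error of its single-enhancer activity. The replicates were transfections of the same plasmid library, set against the same pDNA. Errors from the barcodes of a combination or from its pDNA can therefore repeat in all replicates, and the test does not cover them.

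The deviation depended on the expected activity. It had a median of 0.14 where the expected boost index was between 0.5 and 1, rose to 0.32 between 2 and 2.5, and fell to -0.17 above 4.5. The share of supra-additive calls was 8.48% in the lowest of these ranges, 51.7% between 3 and 3.5 and 10.7% above 4.5, where 37.2% were sub-additive. In that top range the observed boost index had a median of 4.57 for an additive expectation of 4.70 and a multiplicative one of 7.01. The range of 4 to 4.5 already had a median of 4.32, so that combinations with the strongest expectations lay close together. In the ranges between 0.5 and 2.5, the multiplicative expectation was the nearer one. The median deviation from it was 0.06, -0.0002, -0.14 and -0.29 in the ranges starting at 0.5, 1, 1.5 and 2. From additivity it was 0.14, 0.22, 0.26 and 0.32 in the same ranges. From 2.5 upward, the additive expectation was nearer.

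**Figure D5:**
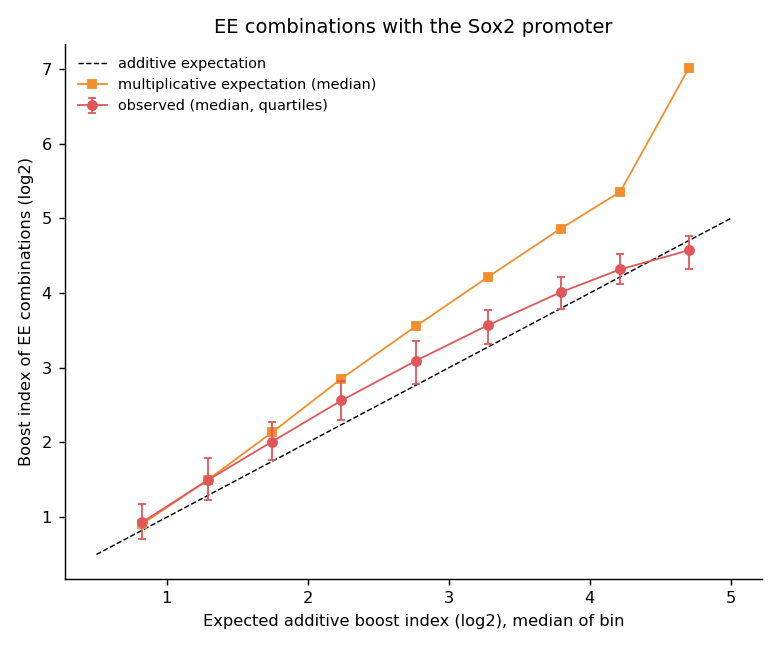
Observed boost index of EE combinations with the *Sox2* promoter (median and quartiles) against the expected additive boost index, in log2 units and by range of the expectation. The dashed line is additivity and squares mark the median multiplicative expectation; observed medians lie above the dashed line up to an expectation of 4.22 and below it at 4.70.

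Grouped by the strength of both enhancers, combinations of intermediate enhancers deviated upward the most. For 129 combinations in which both single-enhancer boost indices were between 2 and 3, the median deviation was 0.46 and 71.3% were called supra-additive. For 453 combinations with both over 3, it was -0.46 and 57.4% were called sub-additive. The median boost indices of these groups were 3.88 and 4.45. When the stronger enhancer was over 3 and the weaker under 1, the gain over the stronger enhancer was 0.18 (1085 combinations), against 1.20 when both were between 2 and 3.

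Over orders and orientations, 1183 pairs of enhancers were measured, and 1009 had at least 4 combinations. Their boost indices ran from 0.49 to 5.11, and 100 exceeded the highest single enhancer. The 5 highest pairs were Klf2_E058 + Lefty1_E094, Fgf5_E040 + Klf2_E058, Lefty1_E094 + Pou5f1_E081, Fgf5_E040 + Pou5f1_E081 and Klf2_E058 + Tbx3_E203, each of which holds one of the strongest single enhancers. Klf2_E058 + Lefty1_E094 had boost indices of 5.32, 5.07 and 4.95, with a deviation of 0.15 ± 0.07 (SD, n = 3). The 3 lowest pairs were Nodal_E162 + Pou5f1_E079 (0.49), Nodal_E157 + Nodal_E162 (0.54) and Otx2_E110 + Tbx3_E206 (0.57), which consist of enhancers with boost indices under 1.

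Among pairs with at least 4 combinations, the 3 with the lowest median deviation from geometric means over replicates were all pairs of Nodal_E159, Sox2_E180 and Nanog_E074, which singly had boost indices of 3.99, 4.20 and 4.05. Nodal_E159 + Sox2_E180 had boost indices of 3.68, 3.77 and 3.55 and deviations of -1.46, -1.41 and -1.47. Nanog_E074 + Sox2_E180 had 3.78, 3.96 and 3.57, with deviations of -1.35, -1.15 and -1.43, and Nanog_E074 + Nodal_E159 had 3.85, 3.96 and 3.63, with deviations of -1.30, -1.01 and -1.31. Among pairs of at least 4 combinations, these were the 3 that lay below the weaker of their single enhancers in every replicate, by differences of -0.41 ± 0.15, -0.29 ± 0.18 and -0.24 ± 0.16 (SD, n = 3). The deviations with *Lefty1* were -1.14, -1.21 and -0.96 on average, and with *Tbx3* they were -1.27, -1.16 and -1.15, so that the direction was the same with these promoters. The pairs were chosen by their deviation, and no test was made of them.

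The 3 most supra-additive pairs of at least 4 combinations held weak or intermediate enhancers. Nanog_E065 + Otx2_E108 had deviations of 1.18, 1.08 and 1.14, but with *Lefty1* 0.45 ± 0.32 and with *Tbx3* 0.34 ± 0.31 (SD, n = 3). Fgf5_E040 + Pou5f1_E083 had deviations of 0.71, 1.00 and 1.35 with *Sox2*, and averages of 0.73 with *Lefty1* and 0.72 with *Tbx3*. Fgf5_E040 + Tbx3_E203 had deviations of 0.94, 0.97 and 0.80, and 1.12 ± 0.18 and 1.05 ± 0.10 with the other two promoters. All 8 combinations of Fgf5_E040 + Tbx3_E203 were called supra-additive with *Sox2*. For the pair of the *Sox2* locus that the study names, Sox2_E178 + Sox2_E182, the boost index was 3.34 ± 0.12 and the deviation 0.39 ± 0.09 (SD, n = 3).

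Averaged over all their EE combinations, 42 of 55 enhancers had a positive deviation in all replicates and 7 a negative one. By the median deviation from geometric means, Fgf5_E040 (0.49), Pou5f1_E083 (0.44) and Tbx3_E203 (0.43) were highest, with averages over replicates of 0.47 ± 0.05, 0.39 ± 0.05 and 0.39 ± 0.03 (SD, n = 3). By these averages Fgf5_E040 was also highest, but Otx2_E108 (0.44 ± 0.06), Lefty1_E086 (0.42 ± 0.20) and Nodal_E156 (0.40 ± 0.01), named here after their values were seen, came next. Of the EE combinations, 136 of 204 with Fgf5_E040 were called supra-additive. Nanog_E074 (-0.25 ± 0.09), Nodal_E159 (-0.22 ± 0.17) and Sox2_E180 (-0.19 ± 0.03) were lowest by both measures (averages over replicates, SD, n = 3). The deviation fell with the single-enhancer boost index (Pearson -0.51, Spearman -0.27, across 55 enhancers), a description in which both measures come from the same EC combinations.

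Between the 6 enhancers of the *Sox2* locus, 14 pairs with 95 combinations were measured. Their median boost index was 3.87, against 3.61 for combinations with 1 enhancer of this locus and 3.25 for those with none. Calls were about as frequent in both directions, with 23.2% supra-additive and 24.2% sub-additive, against 33.8% and 9.48% of all EE combinations and 34.7% and 8.09% of those with no enhancer of this locus. Their expected boost index was also higher, 3.64 against 2.83 with no enhancer of this locus. Where it was higher still, within *Klf2*, *Nanog* and *Pou5f1*, supra-additive calls were 11.8%, 20.0% and 20.2%. Sub-additive calls within these were 23.5%, 26.7% and 11.7%. Sox2_E179 + Sox2_E180 (-0.69 ± 0.11) and Sox2_E180 + Sox2_E183 (-0.68 ± 0.15) were below additivity, and Sox2_E178 + Sox2_E183 was above it (0.45 ± 0.17, SD, n = 3). Combinations of enhancers of the same locus, whichever it was, had a median deviation of 0.19 and those of different loci of 0.18.

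The deviation differed little between orientations. The median deviation was between 0.17 and 0.19 in all 4 classes of orientation. For 1057 pairs of combinations with the order swapped, the median absolute difference was 0.21 log2 units, with a median SD of 0.13 over replicates, and reached 0.77 at the 95th percentile and 1.58 at most. Only 1 combination held the same fragment in both positions, Fgf5_E040 + Fgf5_E040, with a boost index of 1.93, below that of the single enhancer at 2.41.

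EE combinations correlated closely in activity between promoters, and their median deviation was higher with *Lefty1* and *Tbx3* than with *Sox2*. Among 6920 combinations measured with *Sox2* and *Lefty1*, log2 activities correlated with R of 0.952 and the median deviation was 0.18 with *Sox2* and 0.25 with *Lefty1*. Of these, 2341 were called supra-additive with *Sox2* and 2910 with *Lefty1*, and 1830 with both. Among 6808 combinations measured with *Sox2* and *Tbx3*, log2 activities correlated with R of 0.946 and the median deviation was 0.18 and 0.27. The replicates did not overlap in either comparison, with 0.15 to 0.20 for *Sox2*, 0.24 to 0.28 for *Lefty1* and 0.26 to 0.28 for *Tbx3*.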

How the data were processed

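Activities were measured in E14TG2a mESCs, 3 biological replicates of each of 8 libraries, and each library was transfected separately. The authors counted barcodes in cDNA and pDNA, normalized each sample to its total, and deposited for each combination the ratio of cDNA to pDNA averaged over barcodes, 1 column per replicate with both sequencing runs together. The submitters' processing notes name Bowtie2 and mm10. The table holds no counts, so the depth of each activity above the authors' minimum of barcodes and pDNA counts is unknown. Columns of the authors' boost indices and expected activities were not used.

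Geometric means over replicates, baselines (median of CC combinations above 0), boost indices and expectations were computed with Python 3.11.15, numpy 2.4.6, pandas 2.3.3 and scipy 1.17.1, tests with R 4.3.3 and limma 3.58.1, and figures with matplotlib 3.10.9. The baseline in the deposited table differs from the recalculated one. Combinations at 0 in any replicate (3 with *Sox2*) were left out of log2 values. The expected activity needed at least 2 EC combinations per enhancer and position, and position and orientation needed 3 on each side. For single enhancers against controls, the exact rank-sum test (two-sided) was used with a 1% FDR, and limma (two-sided) with a 5% FDR for the other comparisons, adjusted over all libraries or over both promoter comparisons. The calculations were tested on simulated data. Tests over replicates cover the spread between transfections. They cover neither the choice of control partners nor errors of barcodes and pDNA that the replicates share.

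Same-numbered replicates of different libraries deviated together, with correlations over enhancers of 0.617, 0.508 and 0.332 between *Sox2* and *Lefty1* and of 0.625, 0.611 and 0.457 between *Sox2* and *Tbx3*. With the other promoters they ran from 0.054 (*Ap1m1*) to 0.699 (*Otx2*). The replicate numbers from the labels were taken to pair the samples. The promoter tests of the main fit did not use this pairing, and a fit with the numbers as a block was an alternative. Other alternatives were leaving out each replicate, averaging, the baseline, the minimum number of combinations, the limits of calls and the controls used.

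Named enhancers and pairs are those of the *Sox2* locus, the highest and lowest single enhancers and pairs, those not called, the called ones with the largest differences between promoters, positions and orientations, the most deviating pairs and enhancers, the extreme controls, and those the study names. The members and lists were chosen with earlier results of these data known. Sequencing reads were not analysed here.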

Additional observations from a re-analysis of the deposited data

Results flagged for a closer look

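Boost indices of several enhancers differed between the *Sox2* promoter and another promoter by a limma test of the difference itself (adjusted p below 0.05 over both comparisons). Against *Lefty1*, the difference (*Sox2* minus *Lefty1*) was 0.57 for Sox2_E178, 0.55 for Fgf5_E040 and 0.46 for Tbx3_E207. It was -1.56 for Nanog_E089, -0.95 for Pou5f1_E082 and -0.75 for Lefty1_E085. Against *Tbx3*, the difference was 0.78 for Sox2_E179, 0.72 for Klf2_E057 and 0.65 for Sox2_E182, and -0.78 for Pou5f1_E082. Nanog_E089 and Pou5f1_E082 had 3 EC combinations each with *Sox2*. Over combinations measured with both promoters, the difference from *Lefty1* was -0.77 for Nanog_E089 and -0.11 for Pou5f1_E082 (limma adjusted p = 0.804), and that of Pou5f1_E082 from *Tbx3* was -0.68 (limma adjusted p = 0.131), so that both calls of Pou5f1_E082 were lost.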

How the results depend on the processing

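Of the alternatives below, those that left out the shuffled versions of E6, set a minimum difference for position and orientation, centred EC activities on the control partner or left out replicates for the median deviation were chosen after the data were seen. Named differences and the medians of boost, gain and deviation kept their sign, which a count cannot change. However, the median difference between *Sox2* and *Lefty1* went from 0.07 to -0.01 over combinations measured in both libraries, where 3 enhancers were higher and 7 lower. Of the counts, medians and shares under the alternatives, 33 moved beyond the set limits and 91 did not. Named differences lost their call in 24 cases. Without each replicate in turn, the median boost index was 1.56 to 1.66 for EC and 3.30 to 3.45 for EE, their difference 1.71 to 1.80, the gain over the stronger enhancer 0.43 to 0.44, the median deviation 0.18 to 0.20, and the shares outside 1 SD 26.5% to 30.3% above and 7.36% to 8.31% below; 53 to 54 enhancers were higher and 0 lower than controls. Calls depended more on replicates: 0 to 1988 supra-additive, 0 to 513 sub-additive, 0 to 4 higher and 0 to 3 lower with *Sox2* than with *Lefty1*, 1 to 8 higher and 0 to 1 lower than with *Tbx3*, 0 to 15 by position and 9 to 20 by orientation. Fewer replicates give a test less power. With the mean in place of the median, EC was at 2.06, EE minus EC at 1.23 and the gain at 0.50. With 2 SD, 8.32% were above and 2.62% below. With a deviation over 0.5, 1103 and 391 were called, and with a difference over 0.5, 5 by position and 5 by orientation. Without E6, EC was at 1.52, EE at 3.20, the gain 0.35, the median deviation 0.11 and the share below 11.0%. Over combinations measured in both libraries 0 were lower than with *Tbx3*, and with at least 10 EC combinations 1 was lower than with *Lefty1* and 0 than with *Tbx3*. With the replicate block in the paired fit, 7 enhancers were called against *Lefty1* and 13 against *Tbx3*, including all 7 and 12 of the main fit. Centred on the control partner, 32 and 23 were called by position and orientation. The depth is unknown, and enhancers with 3 EC combinations are the least certain.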
